A study of Mus musculus with 8 samples.

Results

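The 10 imprinted genes described here were H19, Igf2, Cdkn1c, Phlda2, Peg3, Usp29, Peg10, Mest, Nnat and Igf2r, which lie outside the Dlk1-Dio3 domain. They were chosen by name, as rows of the deposited gene tables whose Ensembl identifiers map to these symbols. All 10 were found in both tables, among 18821 genes present in either. The choice was made with earlier results of these data known. Counts and medians of the 10 beside those of all genes are therefore descriptions only. H19, Cdkn1c, Phlda2 and Igf2r are expressed from the maternal allele in mouse tissues, and Igf2, Peg3, Usp29, Peg10, Mest and Nnat from the paternal allele. The counts do not separate the alleles, so every value is the sum over both.

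The libraries came from J1, a mouse embryonic stem cell line whose strain is labelled 12910la, grown on gelatin in medium with 15% serum and 10 ng/ml of the cytokine LIF. The KD Zscan4 group carried a short hairpin RNA against Zscan4 in the pSuper puro vector, and the KD control group, labelled a random control of wild-type genotype, went through the same 7 days of puromycin at 2 µg/ml. The OE Zscan4 group carried the coding region of Zscan4c in the pCMV-tag2 vector, and the OE control group, also labelled wild type, went through the same 10 days of G418 at 500 µg/ml. Each group had 2 mRNA libraries. Single clones were picked after selection, and the labels do not say whether the 2 libraries of a group came from different clones or cultures, so p-values measure the spread between these libraries, which may be technical.

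Genomic imprinting marks 1 parental copy of a control region with DNA methylation in the germ line. Genes under such a region are read mainly from 1 parental copy. In the embryo, many paternally expressed genes promote growth and many maternally expressed genes restrain it, with strong roles in the placenta. Imprinted genes lie in clusters under shared control regions, and the marks are known to be prone to loss when embryonic stem cells are kept in culture. Zscan4 encodes zinc finger proteins that embryonic stem cells express in a rare, transient state linked to telomere lengthening and to falls in DNA methylation.

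The libraries held 17392177 to 22381633 reads assigned to genes, and 17938 genes in the knockdown table and 18292 in the overexpression table were tested. The Zscan4 genes are near-identical copies, between which reads cannot be split with certainty, and the sum of the 9 was 97.4 and 136 normalised reads in KD Zscan4 libraries, against 3752 and 3336 in KD control libraries. It was 5878 and 5311 in OE Zscan4 libraries, against 360.4 and 389 in OE control libraries, so both manipulations matched their labels. Values are the authors' normalised read counts, reads divided by a size factor per library, and log2 fold changes were fitted on log2(value + 1) with limma-trend. P-values were adjusted by Benjamini-Hochberg (BH) over all genes of a table, and a gene passed at a false discovery rate of 0.05. The tables were normalised separately, so statements over all 8 libraries are descriptions only. Fewer cells that express a gene and less RNA per cell cannot be told apart in these bulk samples.

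The promoters shown next are that of Usp29 and Peg3, because neighbours reading from a shared start region had unlike values in the knockdown, and those of Mest and Nnat, which rose and fell furthest of the 10 genes in the overexpression, as RefSeq gives them for the GRCm38.p6 build, in windows of 300 bases. Peg3 and Usp29 are read in opposite directions from starts 164 bases apart, and their windows share 263 bases at chr7:6730370-6730632. The Usp29 window, chr7:6730333-6730632 on the plus strand, is shown with the 163 bases between the start of Peg3, at position 87, and the start of Usp29, at position 251, in capitals. That stretch holds 5 CG dinucleotides, the base pair step that carries DNA methylation. The Mest window at chr6:30737800-30738099 and the Nnat window at chr2:157559828-157560127, both on the plus strand, are shown with the letters GCGGCA in capitals, the reverse complement of TGCCGC, which is the core of the motif bound by the imprint-protecting protein ZFP57 when methylated.
Usp29 and Peg3 promoter: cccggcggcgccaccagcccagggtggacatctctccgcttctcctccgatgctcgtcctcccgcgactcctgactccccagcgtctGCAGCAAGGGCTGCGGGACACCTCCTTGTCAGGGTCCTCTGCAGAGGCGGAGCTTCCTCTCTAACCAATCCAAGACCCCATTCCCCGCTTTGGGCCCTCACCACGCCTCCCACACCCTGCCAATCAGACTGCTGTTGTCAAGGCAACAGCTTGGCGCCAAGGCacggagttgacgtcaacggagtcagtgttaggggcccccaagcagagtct
Mest promoter: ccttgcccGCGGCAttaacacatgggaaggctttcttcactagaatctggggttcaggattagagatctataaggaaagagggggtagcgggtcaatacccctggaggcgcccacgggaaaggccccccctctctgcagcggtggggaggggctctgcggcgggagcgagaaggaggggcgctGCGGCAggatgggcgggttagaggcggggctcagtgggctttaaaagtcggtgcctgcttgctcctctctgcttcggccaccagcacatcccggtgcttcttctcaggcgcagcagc
Nnat promoter: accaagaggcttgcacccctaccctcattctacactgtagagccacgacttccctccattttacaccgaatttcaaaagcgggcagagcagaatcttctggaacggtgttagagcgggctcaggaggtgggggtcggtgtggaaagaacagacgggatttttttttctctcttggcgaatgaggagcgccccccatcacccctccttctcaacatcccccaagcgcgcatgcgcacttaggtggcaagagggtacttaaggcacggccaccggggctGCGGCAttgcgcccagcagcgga

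Windows were matched for 7 of the 10 genes. TGCCGC, searched on both strands, was found 2 times in the Mest window shown and 1 time in the Nnat window, and 1 time in an upstream Igf2 window at chr7:142661222-142661521, whereas 11.6% of the 32851 windows of all genes held it. The core motif of YY1, GCCATNTT, was found in no window of these genes on either strand, against 6.05% of all windows. The windows of these genes held 2 to 34 CG dinucleotides, with the lowest number in an Igf2 window and the highest in the Igf2r window, against a median of 7 and an upper quartile of 20 over all windows. A match of letters is a description of the sequence only.

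In the knockdown, 6 of the 10 imprinted genes fell, 1 rose and 3 did not pass the test. Cdkn1c fell furthest, followed by Peg10, H19, Igf2, Mest and Phlda2, and Usp29 was the gene that rose. Peg3, Nnat and Igf2r did not pass. Among all genes tested, 35.7% passed in either direction, with 18.5% lower and 17.2% higher. The median log2 fold change was -0.53 over the 10 genes, beside 0.0078 over all genes. The libraries of the 2 groups did not overlap for any of the 10 genes, where 67.8% of all genes had groups that did not overlap.

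In the overexpression, 4 of the 10 genes rose, 4 fell and 2 did not pass. Mest, Peg10, Peg3 and Phlda2 were the genes that rose, and Nnat, H19, Igf2r and Cdkn1c those that fell, while Igf2 and Usp29 did not pass. Among all genes tested, 44.3% passed in either direction, with 22.3% higher and 22.1% lower. The median log2 fold change was -0.09 over the 10 genes, beside -0.0022 over all genes. For 9 of the 10 genes the libraries did not overlap, against 71.2% of all genes.

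Markers of primitive endoderm, a yolk sac lineage that embryonic stem cells can form, were set beside these results. Of all genes tested, 18.5% fell and 17.2% rose in the knockdown, and 22.1% fell and 22.3% rose in the overexpression. All 14 primitive endoderm markers fell in the knockdown, and their summed level was 6509 and 6011 normalised reads in KD Zscan4 libraries, against 19468 and 19140 in KD control libraries. Among the defining markers, Gata6 had 25.4 and 16.5 in KD Zscan4 libraries, against 467 and 383 in KD control libraries, and Foxa2 was at 0 in KD Zscan4 replicate 1. This list fell in the same libraries as Cdkn1c, Peg10, H19, Igf2, Mest and Phlda2, while Usp29 rose in them. The part of the list in those changes was not tested. In the overexpression 10 of 13 primitive endoderm markers fell and 1 rose. Their sums were 5449 and 5482 in OE Zscan4 libraries, against 7563 and 7232 in OE control libraries. H19, Nnat, Igf2r and Cdkn1c fell in the same comparison, whereas Mest, Peg10, Peg3 and Phlda2 rose. The part of the list there was likewise not tested.

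**Figure D1:**
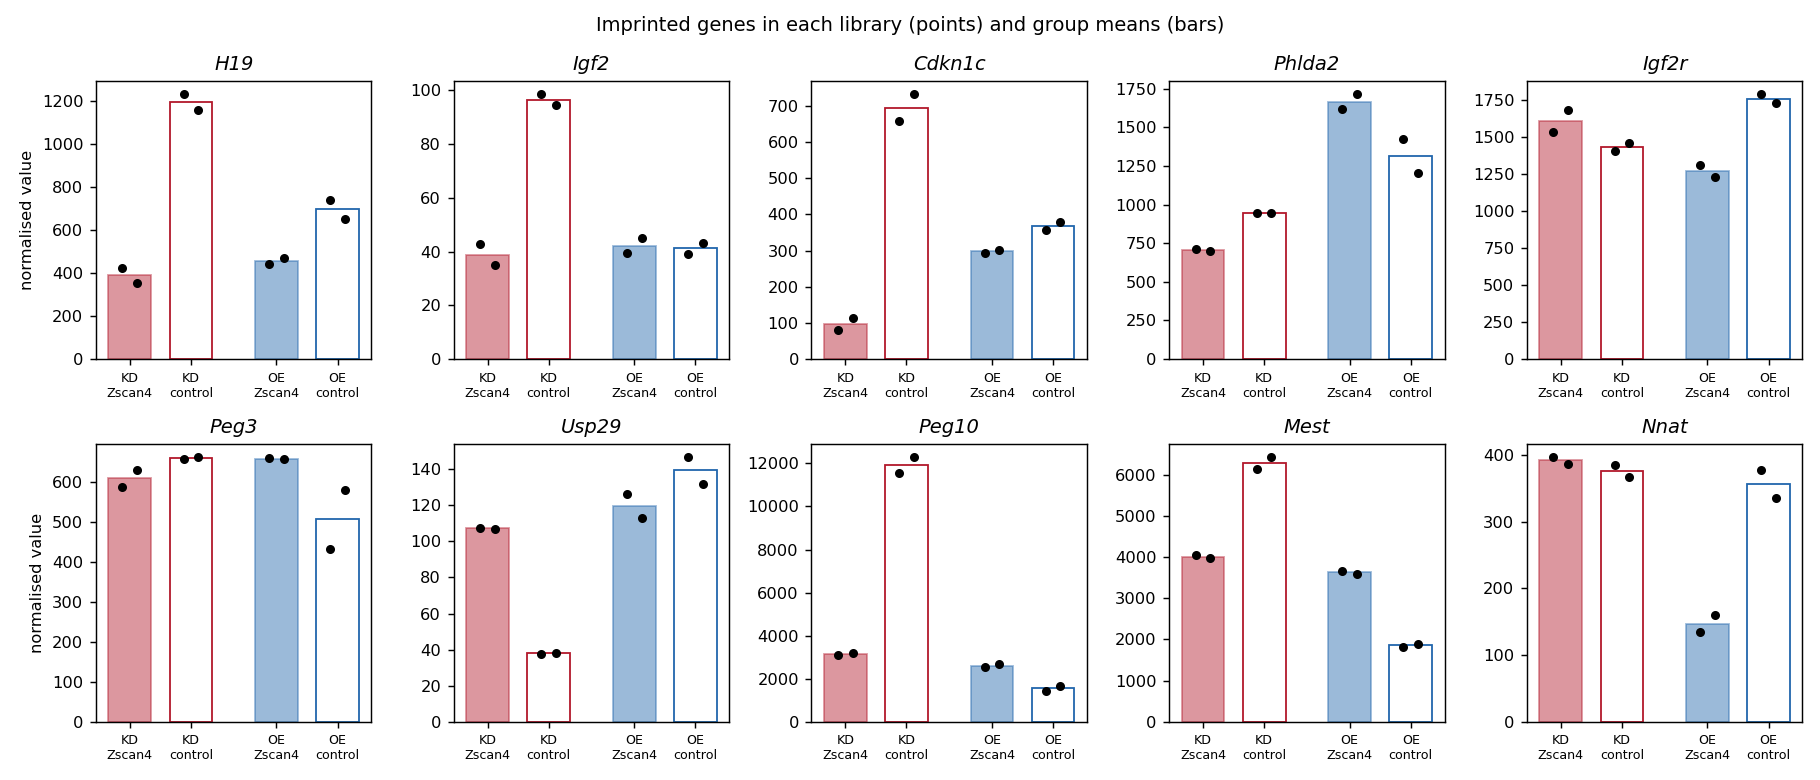
Normalised read counts of the 10 imprinted genes, with a panel per gene, groups along the horizontal axis, a point per library and bars at the mean of 2 libraries. Peg10 stood at 3109 and 3209 in KD Zscan4 libraries, far below its KD control libraries, and Usp29 stood at 108 and 107 in KD Zscan4 libraries, above 37.6 and 38.2 in KD control libraries.

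The H19-Igf2 locus at the distal end of mouse chromosome 7 pairs a maternally expressed noncoding RNA with a paternally expressed growth factor that draw on the same enhancers. H19, at chr7:142575529-142578143 on the minus strand in the GENCODE M21 annotation of mm10, is an abundant fetal RNA and the host of the microRNA gene Mir675. It had 424 and 353 normalised reads in KD Zscan4 libraries, against 1232 and 1159 in KD control libraries. It had 442 and 471 in OE Zscan4 libraries, against 739 and 653 in OE control libraries. Both Zscan4 groups lay below their controls, and the libraries did not overlap. H19 fell in the knockdown with a log2 fold change of -1.62 (SE 0.09, adjusted p = 1.3e-07 with limma) and in the overexpression with a smaller one of -0.61 (SE 0.09, adjusted p = 4.4e-05 with limma).

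Igf2, at chr7:142650766-142666816 on the minus strand, encodes the main fetal insulin-like growth factor. It had 42.6 and 34.9 normalised reads in KD Zscan4 libraries, against 98.5 and 94.3 in KD control libraries. It had 39.3 and 45.1 in OE Zscan4 libraries, against 39.1 and 43.3 in OE control libraries. The KD control libraries were high and the other 6 libraries lay close together. Igf2 fell in the knockdown (log2 fold change -1.30, SE 0.20, adjusted p = 4.2e-04 with limma), and its overexpression value of 0.03 (SE 0.25, adjusted p = 0.93 with limma) did not pass. H19 and Igf2, which are read from opposite parental alleles, both fell in the knockdown.

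Exons of other genes overlay 64.5% of the Igf2 exon bases, most of it the gene model Gm49394 on the same strand, with 3596 shared bases. Gm49394 had a log2 fold change of -1.31 in the knockdown, where it fell, and 0.07 in the overexpression, where it did not pass, so the split of reads between the pair is uncertain. Within H19, the gene models Mir675 and Gm27483 fell in the knockdown, with log2 fold changes of -1.82 and -1.66, from at most 36 and 41 reads in a library. Gm27786, also within H19, did not pass there at -1.06. Mir675, Gm27483 and Gm27786 share 84, 71 and 70 exon bases with H19, so their reads cannot be told apart from those of H19. Without KD control replicate 1 Mir675 stood at -1.33 and no longer passed (adjusted p = 0.13 with limma). Mir675 was counted as part of an mRNA library and its value is not a measure of the mature microRNA. Igf2os, an antisense gene model at Igf2 with 0 to 14 reads in the knockdown libraries, also fell there, with a log2 fold change of -2.38 (adjusted p = 0.034 with limma). It did not pass without KD Zscan4 replicate 2, at -1.21, or without KD control replicate 2, at -1.86.

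The Cdkn1c-Phlda2 locus lies beside H19-Igf2 and is controlled by a separate imprinting region, at which the noncoding RNA Kcnq1ot1 is made from the paternal copy. Cdkn1c, at chr7:143458339-143461050 on the minus strand, encodes a cyclin-dependent kinase inhibitor that restrains growth. It had 81.2 and 113 normalised reads in KD Zscan4 libraries, against 657 and 732 in KD control libraries. It had 293 and 302 in OE Zscan4 libraries, against 358 and 378 in OE control libraries. The KD Zscan4 libraries were the lowest of all 8, and the OE groups were separated by a narrow gap. Cdkn1c fell in the knockdown with a log2 fold change of -2.85 (SE 0.14, adjusted p = 5.6e-08 with limma), the largest change of the 10 genes in either comparison.

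In the overexpression Cdkn1c passed at a log2 fold change of -0.30 (SE 0.10, adjusted p = 0.023 with limma), a call that several alternatives lost. DESeq2 gave an adjusted p of 0.14, and a fit of all 8 libraries gave 0.068. Without OE Zscan4 replicate 1, OE Zscan4 replicate 2 or OE control replicate 2 the adjusted p with limma was 0.13, 0.083 and 0.072, while over all alternatives the log2 fold change stayed between -0.34 and -0.26. The antisense gene model Gm44732 shares 625 exon bases with Cdkn1c and fell in the knockdown with a log2 fold change of -2.80. Whether counting used strand is not given in the sources used here, so reads of the pair cannot be told apart.

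Phlda2, at chr7:143501545-143503150 on the minus strand, encodes a pleckstrin homology domain protein that limits placental growth. It had 713 and 698 normalised reads in KD Zscan4 libraries, against 944 and 946 in KD control libraries. It had 1618 and 1714 in OE Zscan4 libraries, against 1422 and 1202 in OE control libraries. Its groups did not overlap in either comparison, and the Zscan4 group was low in the knockdown and high in the overexpression. Phlda2 fell in the knockdown (log2 fold change -0.42, SE 0.07, adjusted p = 4.4e-04 with limma) and rose in the overexpression (0.35, SE 0.08, adjusted p = 0.0021 with limma). Without OE control replicate 2 the overexpression value was 0.23.

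Of the other imprinted genes of this region, Cd81, a tetraspanin of the cell surface, fell in both comparisons, at -0.48 on the log2 scale in the knockdown and at -0.61 in the overexpression. Slc22a18, a transporter-like gene whose start lies 12.7 kb from that of Cdkn1c, had 20.2 and 31.9 normalised reads in OE Zscan4 libraries, against 93.5 and 152 in OE control libraries. It fell by 2.19 on the log2 scale in the overexpression and did not pass in the knockdown, with a value of -0.13. Ascl2, a transcription factor of the placental lineage, fell in the overexpression with a log2 fold change of -0.91, and Tssc4 rose there at 0.24, a call that was lost without OE Zscan4 replicate 1 (0.31), OE Zscan4 replicate 2 (0.18) or OE control replicate 2 (0.21). In the knockdown Ascl2 and Tssc4 stood at 0.43 and 0.07 and did not pass. Kcnq1ot1, with -0.12 for KD Zscan4 and 0.20 for OE Zscan4, and Osbpl5, with 0.10 and -0.27, did not pass in either comparison. Kcnq1 was not analysed here.

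The Peg3 domain at the proximal end of chromosome 7 is named for a paternally expressed zinc finger gene that shares its start region with Usp29, the promoter printed above. Peg3, at chr7:6703892-6730431 on the minus strand, had 588 and 631 normalised reads in KD Zscan4 libraries, against 657 and 663 in KD control libraries. It had 659 and 658 in OE Zscan4 libraries, against 433 and 579.9 in OE control libraries. The 2 OE control libraries lay far apart, and OE control replicate 1 was the lowest of all 8. Peg3 did not pass in the knockdown (log2 fold change -0.12, SE 0.07, adjusted p = 0.25 with limma) and rose in the overexpression (0.39, SE 0.11, adjusted p = 0.008 with limma). Without OE control replicate 1 the overexpression value was 0.18 and no longer passed (adjusted p = 0.11 with limma), and without OE control replicate 2 it was 0.60.

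Usp29, at chr7:6730578-6967219 on the plus strand, encodes a ubiquitin-specific peptidase, an enzyme class that removes ubiquitin from proteins. It had 108 and 107 normalised reads in KD Zscan4 libraries, against 37.6 and 38.2 in KD control libraries. It had 126.5 and 113 in OE Zscan4 libraries, against 147 and 132 in OE control libraries. The KD control libraries were the low ones, and the other 6 lay above 100 normalised reads. Usp29 rose in the knockdown with a log2 fold change of 1.48 (SE 0.19, adjusted p = 1.0e-04 with limma) and did not pass in the overexpression (-0.22, SE 0.15, adjusted p = 0.27 with limma). Peg3, its divergent partner, was lower by 0.12 on the log2 scale in the same knockdown libraries without passing.

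At the far end of Usp29, Zim3, annotated as antisense, shares 2582 exon bases with it. Zim3 rose in the knockdown with a log2 fold change of 1.64. It had 50.7 and 50.5 normalised reads in KD Zscan4 libraries, against 14.3 and 16.9 in KD control libraries. Whether counting used strand is not given, so reads of the bases shared by Zim3 and Usp29 cannot be told apart. Zfp264, a zinc finger gene of the same domain, had 223 and 239.8 in KD Zscan4 libraries, against 110 and 103 in KD control libraries, and rose with a log2 fold change of 1.11 (SE 0.13, adjusted p = 4.2e-05 with limma). In the overexpression Zim3 and Zfp264 had -0.25 and 0.29 and did not pass. Zim1 did not pass in either comparison, with 0.62 in the knockdown and 0.56 in the overexpression. Aurkc, a kinase gene that is not on the imprinted list and starts 264.7 kb from Usp29, rose in the knockdown at 2.21 and fell in the overexpression at -0.99.

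Peg10, on proximal chromosome 6 at chr6:4747306-4760517 on the plus strand, is a gene derived from a retrotransposon and is needed for the early placenta. It had 3109 and 3209 normalised reads in KD Zscan4 libraries, against 11535 and 12301 in KD control libraries. It had 2523 and 2691 in OE Zscan4 libraries, against 1413 and 1675 in OE control libraries. The KD control libraries stood apart from the other 6. Peg10 fell in the knockdown (log2 fold change -1.91, SE 0.05, adjusted p = 3.0e-10 with limma) and rose in the overexpression (0.76, SE 0.08, adjusted p = 8.6e-07 with limma).

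Sgce, which encodes a sarcoglycan of the muscle and nerve cell membrane, starts 0.1 kb from Peg10 on the opposite strand and is also paternally expressed. It had 73.4 and 86.4 normalised reads in OE Zscan4 libraries, against 166 and 165 in OE control libraries, and fell with a log2 fold change of -1.04 (SE 0.16, adjusted p = 5.7e-05 with limma), in the libraries where Peg10 rose. It had 96.4 and 74.7 in KD Zscan4 libraries, against 156 and 98.8 in KD control libraries, and did not pass (-0.54, SE 0.22, adjusted p = 0.071 with limma). No test was made between the partners of a pair. Of the other imprinted genes near Peg10, Ppp1r9a fell in the knockdown at -0.39 and Calcr at -1.16, with at most 21 reads of Calcr in a library. The call of Calcr was lost without any 1 of the 4 knockdown libraries (-1.19 to -1.13). That of Ppp1r9a was lost without KD Zscan4 replicate 1, at -0.25, and without KD control replicate 1 or 2, at -0.38 and -0.40. Asb4, with -1.53 in the knockdown and -1.04 in the overexpression on at most 13.5 normalised reads, did not pass.

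**Figure D2:**
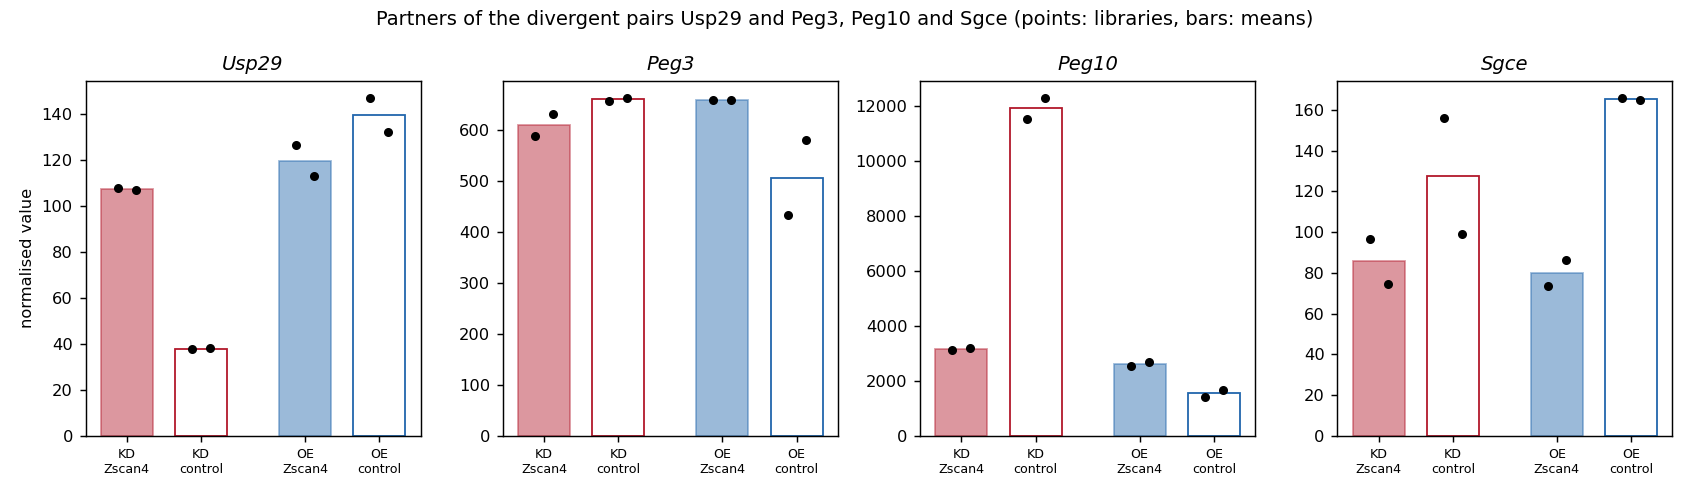
Normalised read counts of the divergent neighbours Usp29 and Peg3, and Peg10 and Sgce, by group, with a point per library and bars at the mean of 2 libraries. In OE Zscan4 libraries Peg10 lay above, and Sgce at 73.4 and 86.4 below, the OE control libraries, and in KD Zscan4 libraries Usp29 lay above its KD control libraries while Peg3 lay just below them.

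Mest, at chr6:30723547-30748465 on the plus strand, encodes an enzyme of the alpha/beta hydrolase family that is abundant in embryonic mesoderm. It had 4037 and 3984 normalised reads in KD Zscan4 libraries, against 6129 and 6428 in KD control libraries. It had 3649 and 3599 in OE Zscan4 libraries, against 1819 and 1885 in OE control libraries. Replicates lay close together in every group, and the groups did not overlap. Mest fell in the knockdown (log2 fold change -0.65, SE 0.05, adjusted p = 1.6e-06 with limma) and rose in the overexpression (0.97, SE 0.07, adjusted p = 5.0e-09 with limma), the largest rise of the 10 genes in that comparison. Copg2, which encodes a coat protein subunit and shares 912 exon bases with Mest from the other strand, had log2 fold changes of 0.09 and 0.04 and did not pass in either comparison. Klf14, a transcription factor gene of the same cluster, was low in the overexpression libraries and did not pass there at -0.27.

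Nnat, at chr2:157560078-157562522 on the plus strand, encodes neuronatin, a small membrane protein of the endoplasmic reticulum, and lies within an intron of Blcap. It had 397 and 386 normalised reads in KD Zscan4 libraries, against 385 and 366 in KD control libraries. It had 134 and 159.7 in OE Zscan4 libraries, against 378 and 336 in OE control libraries. The OE Zscan4 libraries were low and the other 6 lay between 336 and 397. Nnat did not pass in the knockdown (log2 fold change 0.06, SE 0.09, adjusted p = 0.63 with limma) and fell in the overexpression (-1.28, SE 0.13, adjusted p = 4.8e-07 with limma), the furthest of the 10 genes there. Blcap, its host gene, had -0.10 for OE Zscan4 and 0.08 for KD Zscan4 and passed in neither comparison.

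Igf2r, at chr17:12682406-12769664 on the minus strand, encodes the mannose 6-phosphate receptor that carries Igf2 to lysosomes for breakdown. It had 1529 and 1683 normalised reads in KD Zscan4 libraries, against 1405 and 1460 in KD control libraries. It had 1310 and 1227 in OE Zscan4 libraries, against 1787 and 1726 in OE control libraries. The OE Zscan4 libraries were the lowest of all 8. Igf2r fell in the overexpression (log2 fold change -0.47, SE 0.07, adjusted p = 4.5e-05 with limma) and did not pass in the knockdown (0.16, SE 0.06, adjusted p = 0.068 with limma). The knockdown value was 0.09 without KD Zscan4 replicate 2 (adjusted p = 0.33 with limma) and did not pass. It passed without KD Zscan4 replicate 1, at 0.23 (adjusted p = 0.011 with limma), and when the median of chromosome 17 was subtracted, at 0.21 (adjusted p = 0.027 with limma). Airn, Slc22a2 and Slc22a3 of the same domain were not analysed here.

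**Figure D3:**
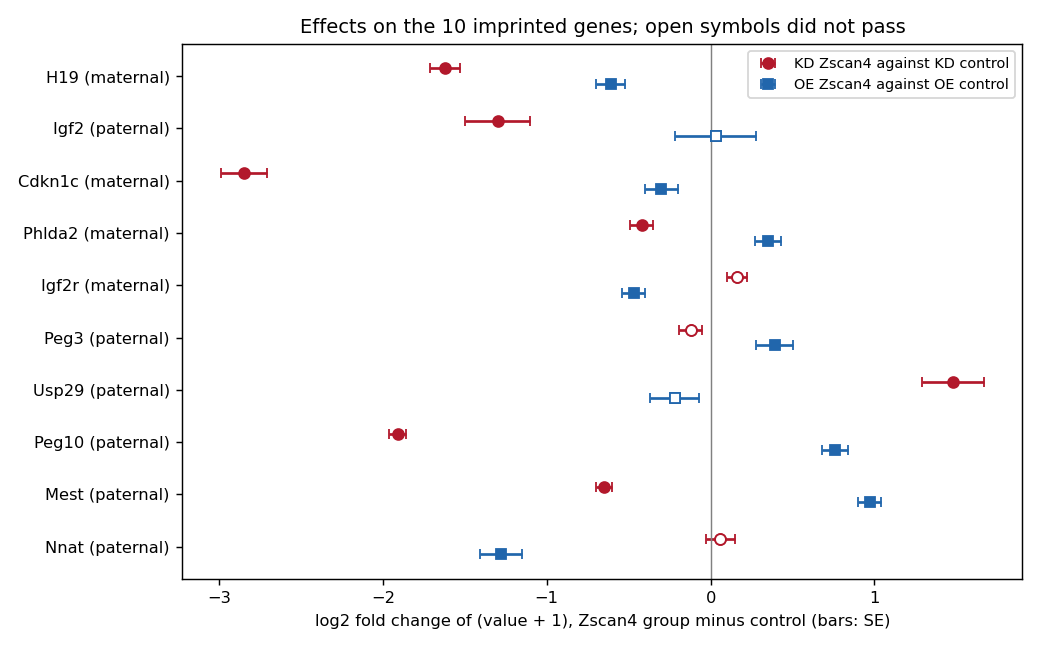
Log2 fold change of each of the 10 imprinted genes, Zscan4 group minus its control, with bars of 1 SE, circles for the knockdown and squares for the overexpression. Filled symbols passed a false discovery rate of 0.05, and Mest, Peg10 and Phlda2 passed on the left of 0 in the knockdown and on the right of 0 in the overexpression.

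Mest, Peg10 and Phlda2 fell in the knockdown and rose in the overexpression, whereas Cdkn1c and H19 fell in both. The other 5 genes passed in a single comparison, Igf2 and Usp29 in the knockdown and Peg3, Igf2r and Nnat in the overexpression. The difference between the effects was tested directly as the overexpression effect minus the knockdown effect over the 17409 genes of both tables, of which 44.7% passed, 22.9% with a positive and 21.8% with a negative difference. All 10 genes passed this test, 7 with a positive and 3 with a negative difference. Peg10 had the largest difference at 2.67 (SE 0.10, adjusted p = 1.4e-11 with limma), followed by Cdkn1c at 2.54 (SE 0.18, adjusted p = 2.6e-08 with limma). Usp29 had the lowest at -1.69 (SE 0.23, adjusted p = 2.4e-05 with limma), and Peg3 the smallest in size at 0.51 (SE 0.15, adjusted p = 0.011 with limma).

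Grouped by parental allele, the 4 maternally expressed genes included 3 that fell and none that rose in the knockdown, and 3 that fell and 1 that rose in the overexpression, with median log2 fold changes of -1.02 and -0.39. The 6 paternally expressed genes included 3 that fell and 1 that rose in the knockdown, and 1 that fell and 3 that rose in the overexpression, with medians of -0.38 and 0.21. Over all genes, 18.5% fell and 17.2% rose in the knockdown and 22.1% fell and 22.3% rose in the overexpression. The fall of Cdkn1c counted in the overexpression is the call that several alternatives lost. The rise of Peg3 counted there was lost without OE control replicate 1, at 0.18. Phlda2 was the maternally expressed gene that rose in the overexpression, and Nnat the paternally expressed gene that fell. In the knockdown the growth factor gene Igf2 fell in the same libraries as Cdkn1c and Phlda2, which restrain growth.

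Because the tables were normalised separately, levels across the 4 groups are given as RPM, each library scaled to 1000000 reads of the gene table, without a test. Peg10 averaged 161 ± 6.26 in KD Zscan4 and 611 ± 26.8 in KD control libraries, and 125 ± 4.40 in OE Zscan4 and 81.7 ± 12.4 in OE control libraries (SD, n = 2 each). Its level was 7.48 times as high in KD control as in OE control libraries, although both are labelled wild type. Mest averaged 204 ± 1.47 in KD Zscan4 and 322 ± 10.3 in KD control libraries, and 174 ± 3.47 in OE Zscan4 and 97.8 ± 5.58 in OE control libraries. For both genes the order from high to low was KD control, KD Zscan4, OE Zscan4, OE control, with no overlap between neighbours in that order, and both Zscan4 groups lay between the controls.

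Cdkn1c averaged 4.95 ± 1.21 RPM in KD Zscan4 and 35.6 ± 2.66 in KD control libraries, and 14.3 ± 0.129 in OE Zscan4 and 19.4 ± 1.38 in OE control libraries. H19 and Igf2 had the same order as Cdkn1c, KD control, OE control, OE Zscan4, KD Zscan4, but the ranges of OE Zscan4 and KD Zscan4 overlapped for both genes, and those of OE control and OE Zscan4 for Igf2. Usp29 was at 5.46 ± 0.062 in KD Zscan4 and 1.94 ± 0.0176 in KD control libraries, and at 5.73 ± 0.526 in OE Zscan4 and 7.35 ± 0.325 in OE control libraries, so that KD control was the group that stood apart. Nnat was at 7.03 ± 0.800 in OE Zscan4 and 18.8 ± 0.959 in OE control libraries, and its KD Zscan4 libraries lay just above KD control libraries, which were at 19.3 ± 0.718 and overlapped in range with OE control libraries. Phlda2 was highest in OE Zscan4 at 79.8 ± 2.41 and lowest in KD Zscan4 at 36.0 ± 0.0386. Igf2r was lowest in OE Zscan4 at 60.8 ± 3.43 and highest in OE control libraries at 92.7 ± 0.703. Peg3 spanned the narrowest range, with its highest group at 1.26 times its lowest.

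RPM divided by exon length in kilobases (RPKM) set the levels of different genes beside each other. In KD control libraries Peg10, Mest and Phlda2 were the highest of the 10 at 91.6, 81.6 and 43.2 RPKM, and Igf2 and Usp29 the lowest at 0.864 and 0.107. In OE control libraries Phlda2 led at 61.7, followed by Mest at 24.8 and H19 at 14.9, and Usp29 and Igf2 were again lowest at 0.406 and 0.380. H19 stood at 24.9 in KD control and 14.9 in OE control libraries, so the noncoding RNA was far above Igf2 of the same locus in both. The full exon length was used, and exons of other genes overlay 64.5% of the Igf2 exon bases. The Igf2 level and its rank are therefore uncertain.

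Beside these 10 genes, 36 of the 43 other imprinted genes listed outside Dlk1-Dio3 were in each table. In the knockdown 3 of them rose, 11 fell and 22 did not pass, with a median log2 fold change of -0.14, so that 38.9% passed, near the 35.7% of all genes. In the overexpression 9 rose, 10 fell and 17 did not pass, with a median of 0.05, so that 52.8% passed against 44.3% of all genes. Away from the loci described above, the largest falls in the knockdown were those of Sfmbt2, a Polycomb-related gene of the placenta, at -2.23, Grb10, which encodes an adaptor that dampens growth factor signalling, at -1.45, and Magel2 at -1.22. Inpp5f at 0.41 and Commd1 at 0.39 rose there. In the overexpression Zdbf2 at 1.60, Magel2 at 1.51 and Nespas at 1.12 rose furthest, and Peg12 at -0.61, Grb10 at -0.50 and Mkrn3 at -0.44 fell furthest. Magel2 had 45.7 and 17.9 normalised reads in OE Zscan4 libraries, against 8.58 and 10.3 in OE control libraries, and without OE Zscan4 replicate 1 it stood at 0.86 and no longer passed (adjusted p = 0.25 with limma). Nespas, on 10 to 26 reads, was lost without OE Zscan4 replicate 1 (1.22), OE Zscan4 replicate 2 (1.03) or OE control replicate 1 (1.07). Mkrn3 was lost without OE Zscan4 replicate 1 (-0.32) or OE control replicate 2 (-0.29), and Commd1 in the knockdown stood at 0.24 without KD Zscan4 replicate 1. The median over chromosome 11, which holds Grb10 and Commd1, was -0.34 in the overexpression.

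**Figure D4:**
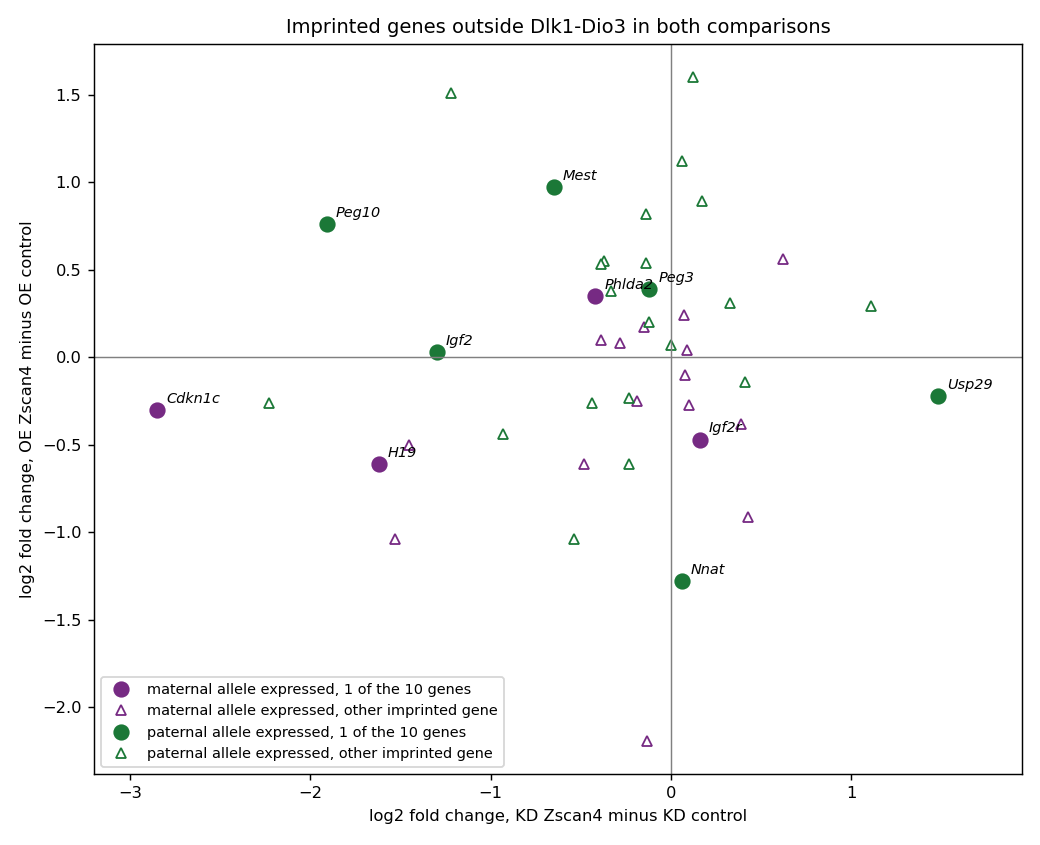
Log2 fold changes of imprinted genes outside Dlk1-Dio3 in the knockdown (horizontal axis) and the overexpression (vertical axis), with filled circles for the 10 genes, open triangles for the other imprinted genes and colour for the expressed allele. Peg10, Mest and Phlda2 lie in the upper left and Cdkn1c and H19 in the lower left, with Cdkn1c farthest left at -2.85.

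Genes around the 10 had mixed changes. Within 500 kb of its start and with a mean of at least 20 normalised reads, Cdkn1c had 14 neighbours in the knockdown, of which 2 rose, 3 fell and 9 did not pass, with a median of 0.00 on the log2 scale where Cdkn1c itself had -2.85. The falls were those of Gm44732, Cd81 and Phlda2, and Cars and Dhcr7 rose at 0.48 and 0.64. Peg10 had 4 such neighbours in each comparison, and in the knockdown none rose and 1 fell while their median was -0.26, beside -1.91 for Peg10. Mest had 8 neighbours in the overexpression, 2 higher and 2 lower, with a median of 0.08 beside 0.97 for Mest. Of all genes tested, with no limit on the mean, 35.7% passed in the knockdown and 44.3% in the overexpression.

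Around H19, 6 of 10 neighbours fell and none rose in the knockdown, with a median of -0.33, and these included Igf2, the gene model Gm49394 that overlaps it and Gm27483, which overlaps H19. Around Usp29, 5 of 15 neighbours rose and 1 fell in the knockdown, with a median of 0.28. The rises included Zim3, which shares exon bases with Usp29. Around Nnat, Platr27, a noncoding gene model whose start lies 37.2 kb away, fell in the overexpression with a log2 fold change of -1.36, close to the -1.28 of Nnat, while 5 of the 15 neighbours rose and 4 fell. Around Igf2r in the overexpression, 5 of 8 neighbours rose and 2 fell, with a median of 0.24 where Igf2r had -0.47. With no limit on the mean, 18.5% of all genes fell and 17.2% rose in the knockdown. In the overexpression 22.1% of all genes fell and 22.3% rose. The median log2 fold changes of chromosomes 2, 6, 7 and 17, on which the 10 genes lie, were between -0.06 and 0.03 in both comparisons.

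**Figure D5:**
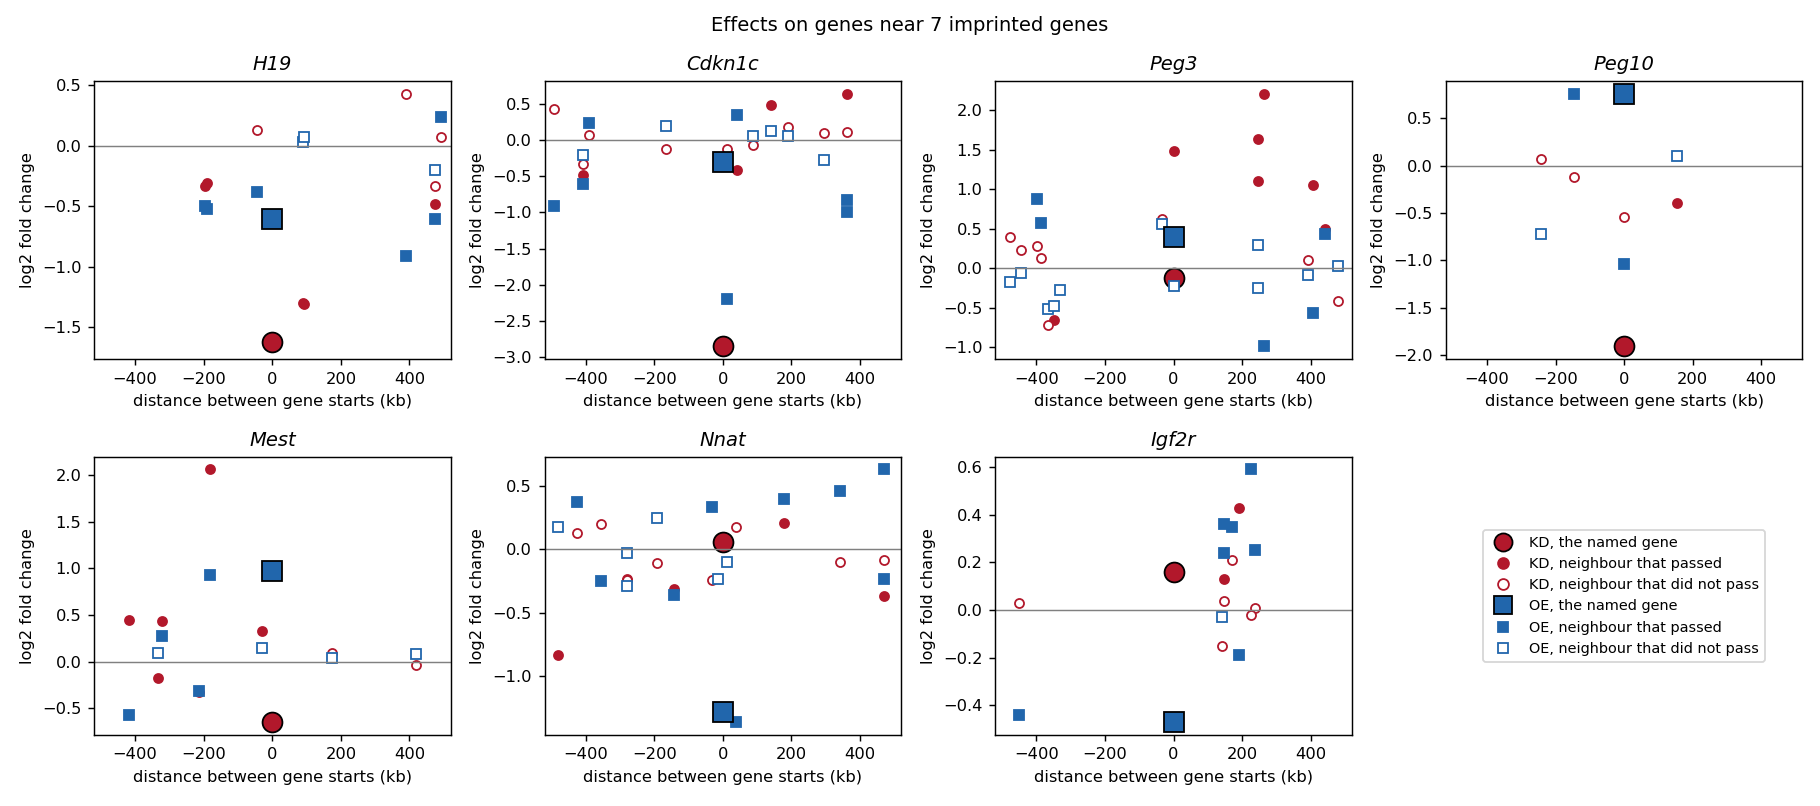
Log2 fold changes of genes within 500 kb of H19, Cdkn1c, Peg3, Peg10, Mest, Nnat and Igf2r against the distance between gene starts in kb, with circles for the knockdown and squares for the overexpression, filled where the test was passed. The large outlined symbols at 0 kb are the named genes, and around Cdkn1c the neighbours had a median of 0.00 in the knockdown.

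Genes whose libraries followed a similar pattern were sought among the 14197 genes of both tables with a mean of at least 20 normalised reads, by the Euclidean distance of log2 values centred within each arm over 8 libraries. The closest to H19 were Ddit4l and Plk2, at distances of 0.33 and 0.34. The closest to Cdkn1c after the overlapping Gm44732 was Col4a2, a collagen gene of the basement membrane, at 0.39, whose log2 fold change was -2.71 in the knockdown and -0.36 for OE Zscan4. Igf2 was closest to the overlapping Gm49394 and then to Nrip1, at 0.19. Peg10 was closest to Ccn2 and Cntfr, at 0.35 and 0.37. Nearer matches were found for Mest (Erf and Gm7993, at 0.08 each), Igf2r (Aldh3a2 at 0.07 and Dcaf8 at 0.09) and Phlda2 (Ftl1 and Exosc10, at 0.11 each). Peg3 was closest to Zbtb38 and Gm44790 at 0.15 each, Nnat to Coq10a at 0.15 and Slc16a3 at 0.21, and Usp29 to Rusc2 at 0.20 and Fgr at 0.21. None of these genes was on the imprinted list, and Gm44732 and Gm49394 share exon bases with the gene they match.

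Proteins that keep imprints through cell division include the maintenance methyltransferase Dnmt1 and the DNA-binding protein Zfp57 with its partner Trim28. Of 17 measured genes of this list, 8 fell and 2 rose in the knockdown, where 18.5% of all genes fell and 17.2% rose. The median log2 fold change of the list was -0.17. Dnmt1 (-0.54), Zfp57 (-0.51) and the Polycomb subunit gene Eed (-0.34) fell, and Khdc3, a gene of the maternal complex of the egg, rose (0.50). In the overexpression, where 22.3% of all genes rose and 22.1% fell, 8 of the list rose and 3 fell, with a median of 0.33. Zfp57 (0.98) and Trim28 (0.80) rose, and Dppa3, which protects imprints in the zygote, fell at -1.72, as did Khdc3 at -1.14. Zfp57 had 5540 and 5816 normalised reads in KD Zscan4 libraries, against 8150 and 7985 in KD control libraries, and 6067 and 5712 in OE Zscan4 libraries, against 2858 and 3098 in OE control libraries. Zfp57 thus fell and rose in the same comparisons as Peg10, Mest and Phlda2, and Peg3 (0.39) also rose in the overexpression. Nnat (-1.28), H19 (-0.61), Igf2r (-0.47) and Cdkn1c (-0.3) fell in the overexpression, where Zfp57 rose. Usp29 (1.48) rose in the knockdown, where Zfp57 fell. Eed likewise fell in the knockdown and rose in the overexpression (0.69). Suz12, another Polycomb subunit gene of the list, went the other way, at 0.22 in the knockdown and -0.48 in the overexpression. The knockdown call of Suz12 was lost without KD Zscan4 replicate 2 (0.10) or KD control replicate 2 (0.18). Ezh2, also of Polycomb, fell in the knockdown at -0.26 and did not pass in the overexpression, at 0.07. A link between Zfp57 and any of these genes was not tested.

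Of the 9 genes that set or erase methylation marks, 6 fell and none rose in the knockdown, with a median of -0.56. Dnmt3b, a de novo methyltransferase, fell furthest at -1.36, with Tet3 (-0.76), Dnmt3l (-0.71) and Tet2 (-0.56) after it. In the overexpression 6 rose and 2 fell, with Dnmt3a at 1.14 and Tet2 at 1.02 among the rises and Ctcfl (-0.88) and Tet3 (-0.81) as the falls, of which Ctcfl did not pass without OE Zscan4 replicate 2, at -0.60. Among all genes tested, 18.5% fell and 17.2% rose in the knockdown, and 22.1% fell and 22.3% rose in the overexpression. DNA methylation was not measured, and its part in the values of the 10 genes was not tested. The insulin-like growth factor pathway holds Igf2 and Igf2r as ligand and clearance receptor. Of 13 other measured genes of the pathway, 4 rose and 3 fell in the knockdown and 3 rose and 4 fell in the overexpression. In each comparison 53.8% of the 13 passed, against 35.7% of all genes in the knockdown and 44.3% in the overexpression. The binding protein genes Igfbp5 (1.22) and Igfbp2 (1.08) rose in the knockdown while Igfbp3 (-0.82) fell. The call of Igfbp5, on 7 to 21 reads, was lost without any 1 of the 4 knockdown libraries (1.04 to 1.39). Igfbp2 and Igfbp5 lie on chromosome 1, whose median was 0.56 in the knockdown. In the overexpression Igfbp4 (-1.69) and Igfbp5 (-0.93) fell, and Igf2bp1 (0.88), which encodes a protein that binds Igf2 mRNA, rose. Igfbp4 and Igf2bp1 lie on chromosome 11, whose median was -0.34 in the overexpression. Igfbp5 did not pass there without OE Zscan4 replicate 2, at -0.53, or without OE control replicate 1, at -0.76.

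Other marker lists were examined beside the 10 genes. For comparison, 18.5% of all genes fell and 17.2% rose in the knockdown, and 22.1% fell and 22.3% rose in the overexpression. Of the 10 embryonic stem cell markers, 9 rose and none fell in the overexpression, with sums of 166585 and 167857 in OE Zscan4 libraries, against 124601 and 121195 in OE control libraries. In the knockdown 3 rose and 3 fell, with sums of 145949 and 140443 in KD Zscan4 libraries, against 144013 and 143024 in KD control libraries. Pou5f1, which defines these cells, had 29284 and 27014 in KD Zscan4 libraries, against 30720 and 30763 in KD control libraries. It had 29191 and 29050 in OE Zscan4 libraries, against 20747 and 19477 in OE control libraries, and rose there at 0.53. All groups thus carried the marker of the labelled cell type, at a lower level in OE control libraries. Trophoblast markers summed to 2906 and 2806 in KD Zscan4 libraries, against 2299 and 2306 in KD control libraries, with 2 of 10 higher and 3 lower. Much of that sum was Tfap2c, with 1696 and 1603 in KD Zscan4 libraries, against 960 and 993 in KD control libraries. Tfap2c (0.76) and Esx1 (2.12) rose, while Cdx2 (-1.13), Krt8 (-0.69) and Eomes (-0.67) fell. The call of Eomes was lost without KD control replicate 1 (-0.59). The trophoblast markers summed to 2458 and 2589 in OE Zscan4 libraries, against 3295 and 2956 in OE control libraries, with 5 of 9 lower and none higher. Ascl2 is both on this list and imprinted. Their part in the values of the 10 genes was not tested. Of the neural markers 3 of 8 rose and 5 fell in the knockdown and 4 of 6 rose and 2 fell in the overexpression, and of the mesenchyme and fibroblast markers 3 of 9 rose and 2 fell in the knockdown and 1 of 8 rose and 4 fell in the overexpression. The 6 measured mesoderm markers did not pass in the knockdown, where the lowest adjusted p with limma was 0.068, and Mesp1 (-2.52) and Tbx6 (-1.31) fell in the overexpression, Tbx6 not passing without OE control replicate 2 (-1.16). The list summed to between 55 and 114 normalised reads in every library.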

How the data were processed

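mRNA was sequenced from 8 libraries of J1 cells, 2 per group, grouped by title. Per the submitters' processing notes, cutadapt, HISAT2, featureCounts and DESeq2 were used with mm10, with no versions. The authors deposited gene tables of normalised signal, and multiplied by a factor per library 100% of values lay within 0.01 of a whole read. Low genes had been left out, and no further filter was applied. Main tests used limma-trend (limma 3.58.1, R 4.3.3) on log2(value + 1), 2 against 2 libraries, two-sided, adjusted over all genes. They were the tests planned for normalised signal, and edgeR was planned only for raw counts. On recovered reads edgeR 4.0.16 called 6483 genes in the knockdown and 8185 in the overexpression. Other alternatives were pseudocounts of 0.1 and 5, a mean of at least 10, TMM factors, limma-voom, DESeq2 1.42.0, other fits and leaving out each library. Replicates of a group differed by 2.81 to 4.71 times the sampling variance per gene.

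The 10 genes and all lists were chosen with earlier results of these data known. Named were the 10 genes, measured imprinted genes of their loci, the 3 largest passing changes per direction among other imprinted genes, up to 4 per regulator or growth factor list, and the 2 closest patterns per gene, with 1 gene of these lists not reported here. Igf2os, Mir675, Gm27483, Gm27786, Suz12, Ezh2, neighbours within 500 kb and the levels of single markers were named after their values were seen. Leaving out libraries was then applied to the other named genes. Symbols, exon lengths and coordinates came from GENCODE M21. The labels name no date or sequencing batch, and the knockdown and overexpression differ in vector and selection.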

Additional observations from a re-analysis of the deposited data

Results flagged for a closer look

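All 10 imprinted genes were flagged because the effect of overexpression and the effect of knockdown differed in the direct test of the difference, where 44.7% of all genes passed. The overexpression effect minus the knockdown effect, on the log2 scale, was 2.67 for Peg10, 2.54 for Cdkn1c, 1.61 for Mest, 1.33 for Igf2 and 1.02 for H19. It was 0.77 for Phlda2, 0.51 for Peg3, -0.63 for Igf2r, -1.34 for Nnat and -1.69 for Usp29. For Peg10, Mest and Phlda2 both effects passed and had opposite signs. For Cdkn1c and H19 both effects passed and were negative, and the difference gives how much further the gene fell in the knockdown.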

How the results depend on the processing

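No call or value of the 10 genes that passed was reversed. In the knockdown 7 to 8 of the 10 genes passed under every alternative, and in the overexpression 7 to 8. DESeq2 called 4141 genes in the knockdown, against 6403 with limma-trend, and the cause was not tested. With a library left out, 4416 to 6087 genes passed in the knockdown, 5964 to 7975 in the overexpression and 6619 to 7397 in the difference, with 7 to 8, 7 and 10 of the 10 genes. A lone library was then assumed to vary like the other group. The imprinted genes outside Dlk1-Dio3, these 10 included, gave 19 to 23, 19 to 25 and 24 to 28 calls. Among the 10 genes, the calls that changed were those of Cdkn1c and Peg3 in the overexpression and Igf2r in the knockdown. With the replicate number as a block, 6924, 8188 and 7388 genes and 7, 8 and 10 of the 10 genes passed. Deviations of libraries with the same number had correlations of -0.0591 in the knockdown and -0.0389 in the overexpression, so the numbers were not taken as pairs. Igf2 and Usp29 rest on as few as 36 and 34 reads in a library.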

Other observations

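The Snrpn cluster on chromosome 7, the Prader-Willi region of mouse, held paternally expressed genes with unlike changes, a set singled out after its values were seen. In the overexpression Snrpn, which encodes a spliceosomal protein, had 3804 and 3920 normalised reads in OE Zscan4 libraries, against 2272 and 2100 in OE control libraries, and rose at a log2 fold change of 0.82. Snhg14, the long host transcript of small nucleolar RNAs, rose at 0.89 and Magel2 at 1.51, while Peg12 and Mkrn3 fell at -0.61 and -0.44. Without OE control replicate 1 Snhg14 stood at 0.51, and without OE Zscan4 replicate 1 Magel2, on 9 to 43 reads, stood at 0.86 and no longer passed. Mkrn3 did not pass without OE Zscan4 replicate 1 (-0.32) or OE control replicate 2 (-0.29). In the knockdown Mkrn3 fell at -0.93 and Magel2 at -1.22, and Snrpn, Snhg14 and Peg12 did not pass, with -0.14, 0.17 and -0.23. Ndn, also of this cluster, fell in both comparisons, at -0.44 in the knockdown and -0.26 in the overexpression. Its overexpression call was lost whichever overexpression library was left out (-0.28 to -0.23).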
